A study of Mus musculus with 38 samples.

Results

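DNA repair and damage checkpoint genes encode the proteins that find, signal and mend broken or altered DNA. The 44 genes described here were taken by name, as the probes that are not controls and whose gene name on the array was a member or an older synonym of it, and 42 of the 44 had a probe, among 28781 gene names on the array. Together they had 75 of the 41174 probes, and 25 members had several probes while 17 had 1. Atr, an apical damage kinase, and Mdc1, a scaffold at marked breaks, had no probe by name and are not analysed here.

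Double-strand breaks are recognised by the Mre11-Rad50-Nbn complex, which activates the kinase Atm, and the signal passes through phosphorylated H2afx and the checkpoint kinases Chek1 and Chek2. Breaks are then rejoined directly by end joining or copied from the sister chromatid by homologous recombination, which needs Brca1 and Brca2 and works with the Fanconi anemia proteins on crosslinked DNA. Damaged bases and single-strand breaks go to base excision repair, replication errors to mismatch repair and bulky adducts to nucleotide excision repair, and many genes of recombination and replication-coupled repair are transcribed mostly in dividing cells.

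The arrays measured sorted tumor cells from the MMTV-PyMT hyperplasia transplant model, in which mammary hyperplasias carrying the polyoma middle T transgene under the MMTV promoter and an actin-GFP transgene were grown in cleared mammary fat pads of FVB/n females. Every sample was sorted for GFP, and every array compared a tumor sample in Cy5 with a pooled mouse reference RNA in Cy3, so that each value is a log2 ratio of sample to reference. In the chemotherapy experiment, 6 untreated tumors (Control in the labels) were compared with 6 residual tumors (Regressed) taken after a first dose of docetaxel, doxorubicin and cyclophosphamide and 4 relapsed tumors (Resistant) taken after the fourth dose, with treatment begun 2 months after transplantation. The progression experiment held tumors that received no chemotherapy: 5 adenomas (early outgrowths), 6 carcinomas (late outgrowths), disseminated cells from lung in 6 samples and lung metastases in 5. All hosts were of strain FVB/n, disseminated samples pooled the lungs of several mice, and metastases were collected after surgical removal of the primary tumor. Ages at collection were not in the labels, and the labels do not say that replicates came from separate animals, so p-values measure only the spread between these samples.

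Between 50.5% and 64.3% of spots were well above background on the chemotherapy arrays, against 48.4% to 78.9% on the progression arrays, whose RNA was amplified in an extra round, and the experiments were tested apart. The median share was 61.6% in adenomas, 74.2% in carcinomas, 70.3% in disseminated cells and 74.6% in metastases. Adenoma 4 and adenoma 3 had the lowest shares of the progression arrays, at 48.4% and 51.1%. The progression arrays lay on 6 slides: carcinomas and metastases shared 3 of them and adenomas and disseminated cells shared the other 3, so that slide and group cannot be told apart in the other 4 pairs of groups. Markers of other cells were detected despite the GFP sort. The mean log2 ratio of 19 macrophage markers was 0.52 ± 0.31 (SD, n = 5) in adenomas, 1.08 ± 1.86 (n = 6) in carcinomas, 4.35 ± 0.56 (n = 6) in disseminated cells and 3.05 ± 1.81 (n = 5) in metastases, while that of 13 mammary and luminal epithelial markers was 4.10 ± 0.29, 3.94 ± 0.58, 2.26 ± 1.44 and 3.18 ± 1.56. All 13 epithelial markers were well above background on every progression array. On 4 arrays these marker means stood apart: disseminated 3, disseminated 5 and metastases 4 had epithelial means of 0.52, 0.82 and 0.40, and carcinoma 6 had a macrophage mean of 4.77 where the other carcinomas lay between -0.37 and 0.91. The chemotherapy arrays also differed in the macrophage mean within groups. Untreated 1, 2 and 3 read 1.69, 2.03 and 1.44, and the other untreated tumors from -0.40 to -0.15. Residual 1 and 2 read 0.83 and 1.40, and the other residual tumors from -0.53 to 0.07. In bulk RNA of this kind, fewer cells of a type and less RNA per cell cannot be told apart.

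Whether repair genes differed between tumors before, during and after chemotherapy was addressed first. No repair or checkpoint gene changed past the threshold of an adjusted p below 0.05 in any chemotherapy comparison. Limma called 0 of 42 members in residual against untreated tumors (0.198% of all genes called), 0 of 42 in relapsed against untreated tumors (0.00695%) and 0 of 42 in relapsed against residual tumors (0.264%). At an unadjusted p below 0.05 the members passing numbered 1, 3 and 2, where 9.09%, 7.66% and 7.77% of all genes passed, and the methods' t-test, taken from the study's legends, also called 0 in each after adjustment. The members' log2 changes were small, from -0.66 to 0.26 in residual tumors and from -0.30 to 0.48 in relapsed tumors, both against untreated.

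In residual tumors 29 of 42 members averaged lower than untreated ones, and the median member differed by -0.12 on the log2 scale. Untreated 5 stood apart, with a mean over the members of -0.29. The other untreated tumors lay between -0.94 and -0.65, and the residual tumors between -1.01 and -0.58. The lower members were spread over the pathways: 7 of 9 homologous recombination genes, 4 of 5 Fanconi anemia genes, 5 of 7 base excision and single-strand break genes and 3 of 3 mismatch repair genes, none of them past the test. Also lower were 2 of 3 kinases, 1 of 2 chromatin proteins, 2 of 3 Mre11-Rad50-Nbn subunits and 3 of 5 end joining genes. In nucleotide excision repair 2 of 5 were lower and 3 higher. The largest differences were those of Exo1, the nuclease that resects DNA ends (-0.66 ± 0.43, SE), and Ung, the uracil glycosylase (-0.51 ± 0.29). Beside these, all 31 cell cycle genes had a lower mean in residual tumors, with a median log2 change of -0.53 and none called. A fit with the cell cycle mean as a covariate also called no member, and the signs it changed are given at the end. The part of the cell cycle in the repair gene values was not tested further. Untreated 5 also had the highest cell cycle mean, at -0.80, with the other untreated tumors from -2.51 to -1.90. Its part in the counts of lower genes was not tested. In relapsed against residual tumors the count turned, with 29 of 42 members higher and a median change of 0.04, and 29 of 31 cell cycle genes were higher there.

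**Figure D1:**
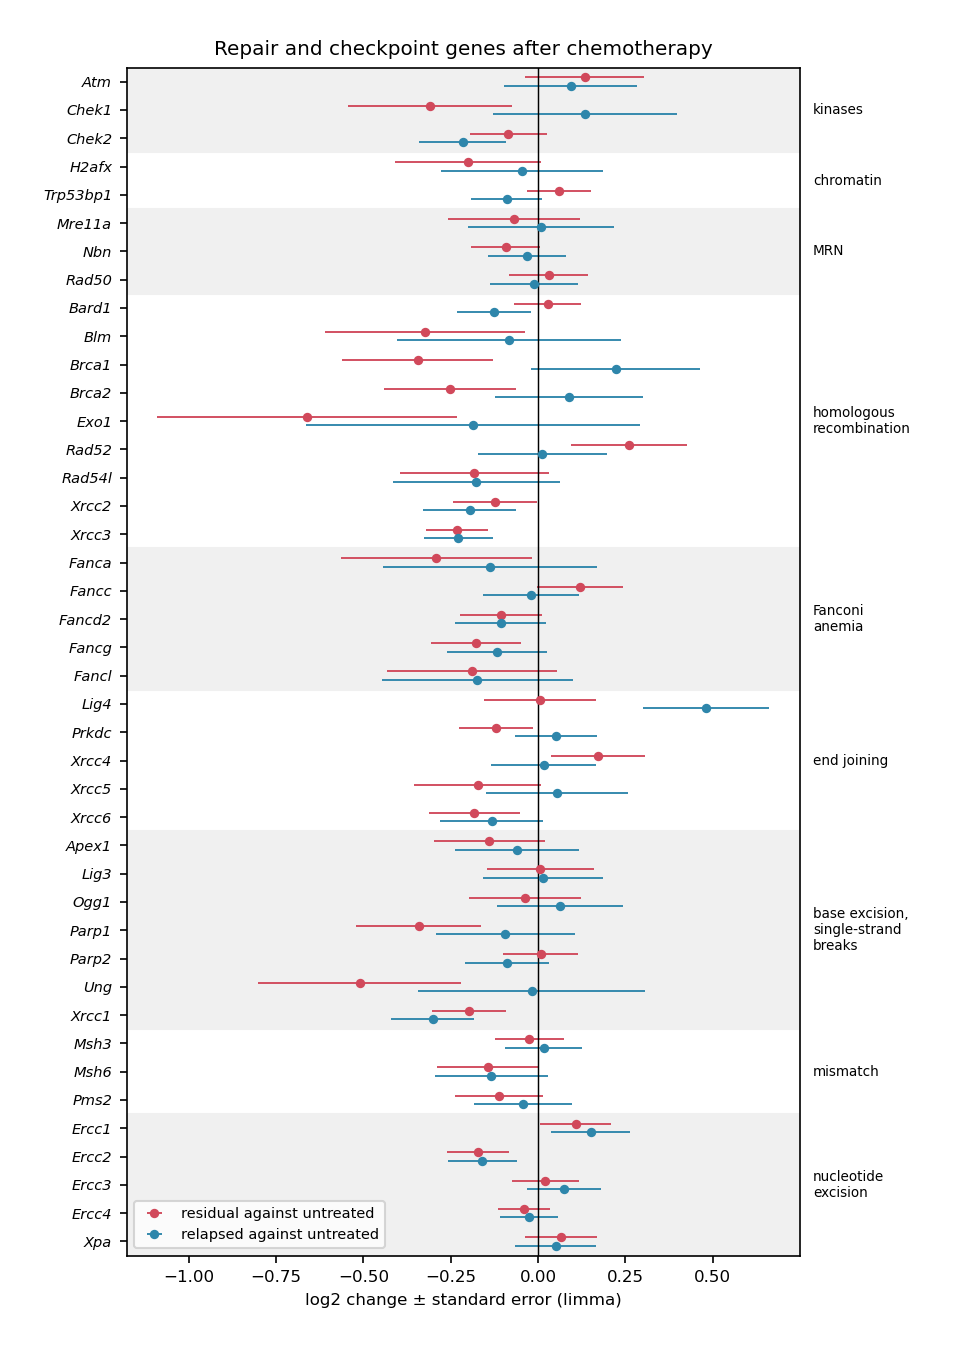
Log2 change (x axis) with its standard error for each of the 42 measured genes (rows, grouped by repair pathway) in residual and in relapsed tumors against untreated tumors, from the limma fit. Most residual values lie slightly below 0, the lowest being Exo1 at -0.66, and Lig4 in relapsed tumors is the highest at 0.48.

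The kinases and the genes of hereditary breast cancer were read sample by sample. Brca1, a recombination mediator and ubiquitin ligase, had log2 ratios from -3.09 to -1.75 with a median of -2.83 in untreated tumors and from -3.31 to -2.48 with a median of -3.20 in residual tumors. In relapsed tumors the Brca1 values were -2.92, -2.29, -2.41 and -2.22. Relapsed 1 lay within the residual range while the other 3 relapsed tumors were above every residual tumor, and the difference of relapsed from residual tumors was 0.57 ± 0.24 with an unadjusted p of 0.0322 in limma and an adjusted p of 0.582. Brca2, which acts in homologous recombination, ranged from -2.30 to -1.20 (median -1.97) in untreated and from -2.53 to -1.67 (median -2.19) in residual tumors, and read -2.13, -1.65, -1.67 and -1.72 in the relapsed tumors. The Brca2 groups overlapped, and limma gave -0.25 ± 0.19 for residual against untreated (adjusted p = 0.739).

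Atm, the kinase activated at breaks, lay between -0.44 and 0.41 (median -0.28) in untreated tumors, between -0.69 and 0.29 (median 0.09) in residual tumors, and at 0.16, -0.16, -0.32 and -0.02 in relapsed tumors. Chek1, the kinase that restrains the cell cycle when replication is damaged, lay between -1.69 and -0.22 (median -1.39) in untreated tumors, between -1.85 and -0.95 (median -1.72) in residual tumors, and at -1.54, -0.99, -0.83 and -1.0 in relapsed tumors. Both kinases overlapped between all 3 groups, with log2 changes in residual tumors of 0.13 ± 0.17 for Atm and -0.31 ± 0.24 for Chek1, and the probe of Chek1 was well above background on 14 of 16 arrays. Another probe of Atm had the opposite sign, at -0.091 in residual and -0.098 in relapsed against untreated tumors. Chek2, the kinase downstream of Atm, ran from -1.09 to -0.48 (median -0.98) in untreated and from -1.20 to -0.72 (median -0.98) in residual tumors, and was -0.95, -1.25, -1.23 and -0.97 in relapsed tumors. H2afx, the histone variant phosphorylated around breaks, ran from -1.81 to -0.45 (median -1.51) in untreated and from -2.06 to -1.05 (median -1.69) in residual tumors, and was -1.62, -1.40, -1.23 and -1.47 in relapsed tumors. These groups overlapped too, with changes in residual tumors of -0.08 ± 0.11 for Chek2, whose probe was well above background on 10 of 16 arrays, and -0.20 ± 0.21 for H2afx.

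Lig4, the ligase that seals ends in end joining, was the 1 member whose relapsed and untreated values did not overlap, by its brighter probe. Its log2 ratio was 1.05, 0.87, 1.17 and 1.22 in relapsed tumors, from 0.17 to 0.86 (median 0.60) in untreated tumors and from -0.01 to 1.13 (median 0.66) in residual tumors. All 4 relapsed tumors were above all untreated tumors, by a narrow margin, and overlapped the residual tumors. The difference from untreated tumors was 0.48 ± 0.18 (unadjusted p = 0.0168, adjusted p = 0.474 in limma), and no other member of the 42 separated these groups, as 1.67% of all genes did. Another probe of Lig4, well above background on all 16 arrays, differed by -0.091, in the opposite direction. The other members at an unadjusted p below 0.05 were Xrcc3, a homologous recombination protein, at -0.23 ± 0.09 in residual and -0.23 ± 0.10 in relapsed tumors, and Xrcc1, the scaffold of single-strand break repair, at -0.30 ± 0.12 in relapsed tumors, all against untreated.

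**Figure D2:**
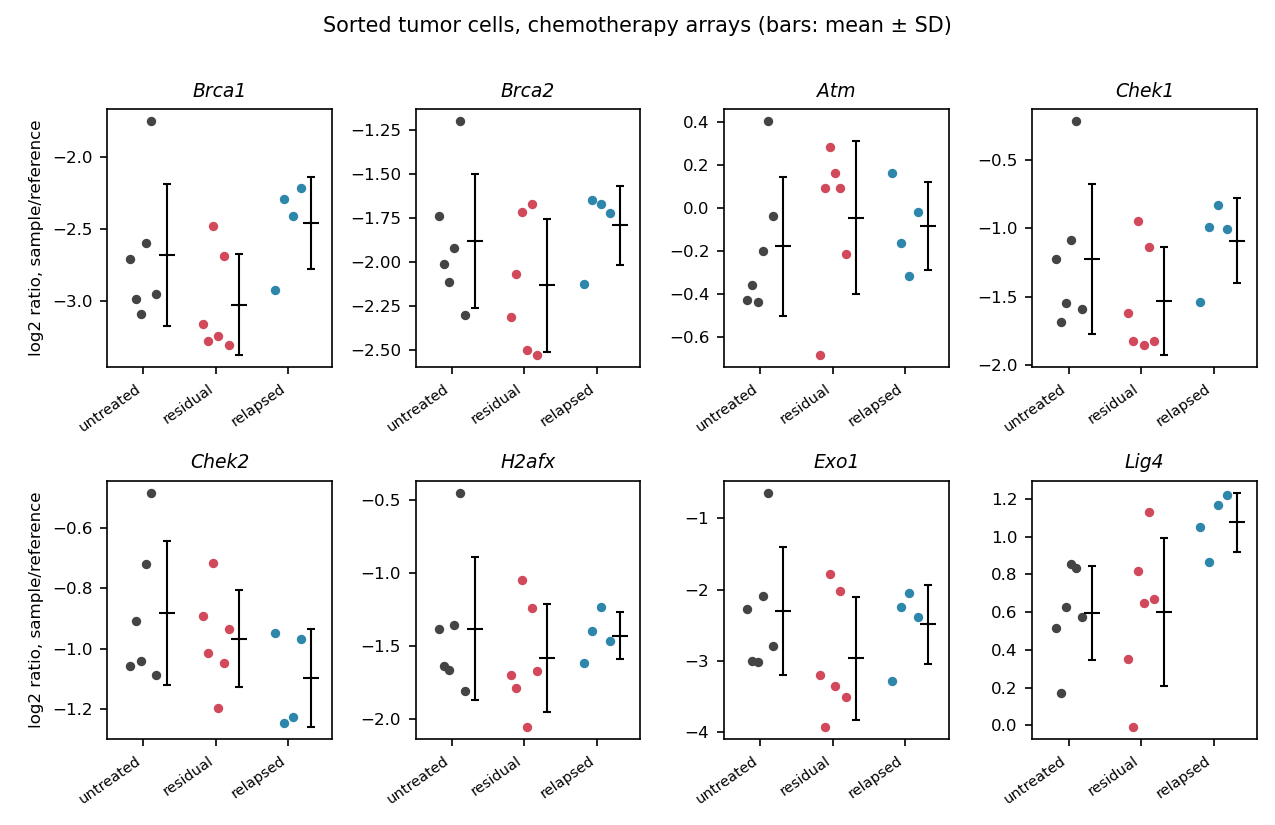
Log2 ratio of sample to reference (y axis) on each chemotherapy array for 8 genes, by group (x axis), with the mean and SD of each group as bars. The untreated, residual and relapsed values overlap in every panel except Lig4, where the 4 relapsed tumors start at 0.87 and the untreated tumors end at 0.86.

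In progression, 32 of the 42 measured members were called in at least 1 of the 6 comparisons. The share of all genes called in at least 1 was not counted, and single comparisons called from 11.7% to 28.6% of all genes. Disseminated cells had the lowest repair gene levels: 16 of 42 members fell and none rose against adenomas (20.6% of all genes called, 8.32% higher and 12.3% lower), the count was 7 without disseminated 5, the median member differed by -0.55 against -0.01 over all genes, and 34 of 42 had a lower mean. Metastases differed from adenomas in both directions, with 5 members higher and 11 lower (28.6% of all genes called, 13.1% higher and 15.5% lower). Carcinomas differed from adenomas least, with 1 member higher and 4 lower, or 11.9% of members beside 11.7% of all genes (6.94% higher and 4.77% lower). Against carcinomas, disseminated cells had 1 member higher and 10 lower (26.6% of all genes called, 9.17% higher and 17.4% lower), and metastases had 7 higher and 5 lower (22% of all genes, 7.99% higher and 14.1% lower). Metastases against disseminated cells had 7 higher and 2 lower (13.1% of all genes called, 6.93% higher and 6.13% lower).

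Read against those backgrounds, the members' shares called were 38.1% in disseminated cells against adenomas, 38.1% in metastases against adenomas, 26.2% in disseminated cells against carcinomas, 28.6% in metastases against carcinomas and 21.4% in metastases against disseminated cells. The share was thus near the background in carcinomas against adenomas and in disseminated cells against carcinomas. With a change of at least 2-fold also required, the members called numbered 2 in carcinomas, 7 in disseminated cells and 8 in metastases against adenomas, where 3.3%, 10.5% and 14.6% of all genes were called. They numbered 7 in disseminated cells and 6 in metastases against carcinomas (11.6% and 10.1% of all genes), and 5 in metastases against disseminated cells (7.11%). Members whose groups did not overlap numbered 5 in carcinomas, 6 in disseminated cells and 10 in metastases against adenomas. Of all genes, 10.5%, 9.38% and 21.5% did not overlap there. Against carcinomas such members numbered 3 in disseminated cells and 5 in metastases (7.18% and 13.6% of all genes). Metastases against disseminated cells had 1 (4.2%). The separations given below for single genes are to be read beside these shares. The comparisons share arrays and are not independent of one another. The 10 members called in none were Blm, Chek2, Ercc4, Fancd2, Mre11a, Prkdc, Xrcc2, Xrcc3, Xrcc4 and Xrcc6.

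In disseminated cells the markers of dividing cells, of macrophages and of some other cell types also differed from adenomas. The mean log2 ratio of 31 cell cycle genes was -1.44 ± 0.35 (SD, n = 5) in adenomas, -2.15 ± 0.27 (n = 6) in carcinomas, -2.41 ± 0.39 (n = 6) in disseminated cells and -2.36 ± 0.53 (n = 5) in metastases, and that of the 42 members was -0.82 ± 0.12, -0.99 ± 0.18, -1.34 ± 0.23 and -1.09 ± 0.22. Against adenomas, disseminated cells had 17 of 19 macrophage markers, 7 of 11 neutrophil markers, 6 of 10 lung epithelial markers and 6 of 9 endothelial markers called higher, and 20 of 31 cell cycle genes called lower. Between adenomas and disseminated cells the mean log2 ratio of neutrophil markers went from 1.60 to 4.36. Lung epithelial markers went from 0.75 to 2.37, endothelial markers from 0.08 to 1.70, and T and NK cell markers from 0.69 to 0.70. The part of these lists in the repair gene values was not tested. With the cell cycle mean as a covariate, limma called 0 members in disseminated cells against adenomas (2 at an unadjusted p below 0.05) and 0.271% of all genes. With the macrophage mean as a covariate it also called 0 members there (3 at an unadjusted p below 0.05) and 0.184% of all genes. The cell cycle mean was at least -1.76 in adenomas and at most -2.07 in disseminated cells. The macrophage mean was at most 0.83 in adenomas and at least 3.51 in disseminated cells. Neither mean overlapped, so these fits cannot separate it from the group. Leaving out the 4 arrays that stood apart, a choice made after seeing the data, gave 8 members called in place of 16.

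**Figure D3:**
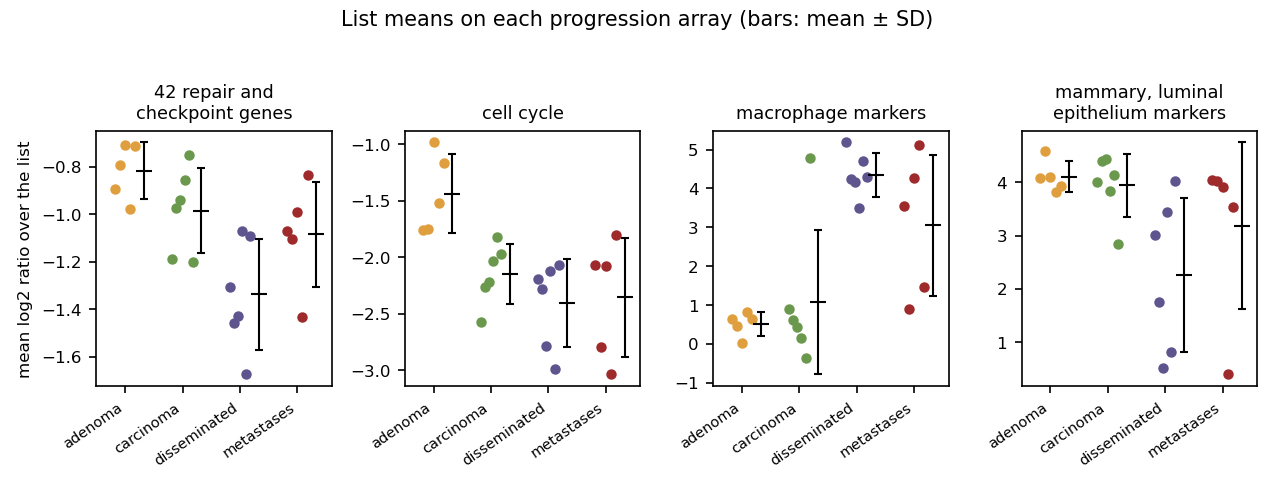
Mean log2 ratio (y axis) over the 42 repair and checkpoint genes, 31 cell cycle genes, 19 macrophage markers and 13 mammary and luminal epithelial markers on each progression array, by group (x axis), with the mean and SD of each group as bars. Disseminated cells are lowest for the repair genes at -1.34 and highest for macrophage markers at 4.35.

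**Figure D4:**
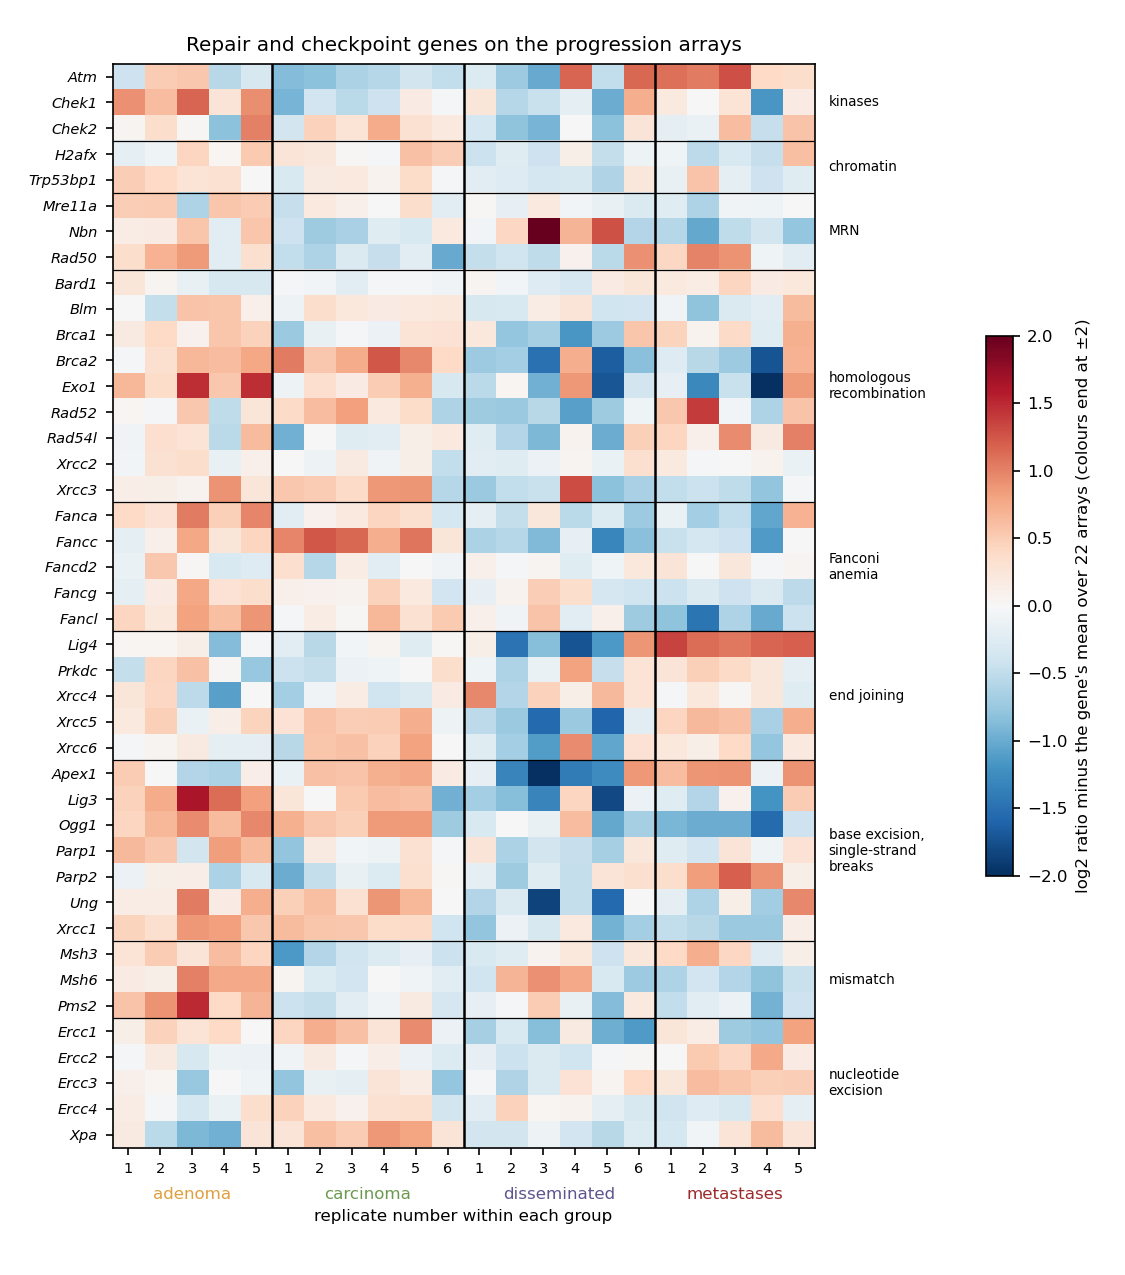
Log2 ratio of each of the 42 genes (rows, by repair pathway) on each of the 22 progression arrays (columns, by group), centred on the mean of the gene over the arrays, with the colour scale ending at 2 in both directions. Many recombination and base excision genes are blue in disseminated cells, Lig4 is red in every metastasis sample, and Fancc is red in carcinomas.

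Promoter sequence was set beside these values for 3 genes on which results below turn: Chek1, which was lower in all 3 later groups than in adenomas, and Fancl and Ogg1, which had the smallest adjusted p values in metastases against adenomas. The sequences are RefSeq's for build GRCm38.p6, 5′ to 3′ on the strand of the gene, from the bases before the most upstream start, at chr9:36726659-36726908 on the minus strand for Chek1, chr11:26386834-26387083 on the plus strand for Fancl and chr6:113326726-113326971 on the plus strand for Ogg1. Capitals mark CCAAT boxes and an ETS site, all on the opposite strand.
Chek1: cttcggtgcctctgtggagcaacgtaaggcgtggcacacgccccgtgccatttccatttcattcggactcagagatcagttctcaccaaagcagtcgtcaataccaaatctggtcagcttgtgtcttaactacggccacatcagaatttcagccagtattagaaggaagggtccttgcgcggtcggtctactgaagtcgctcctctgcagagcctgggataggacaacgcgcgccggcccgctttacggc
Fancl: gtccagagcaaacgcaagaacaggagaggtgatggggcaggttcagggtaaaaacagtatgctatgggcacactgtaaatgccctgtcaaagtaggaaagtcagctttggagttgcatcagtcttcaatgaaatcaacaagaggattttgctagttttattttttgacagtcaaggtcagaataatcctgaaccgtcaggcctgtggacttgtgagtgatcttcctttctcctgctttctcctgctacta
Ogg1: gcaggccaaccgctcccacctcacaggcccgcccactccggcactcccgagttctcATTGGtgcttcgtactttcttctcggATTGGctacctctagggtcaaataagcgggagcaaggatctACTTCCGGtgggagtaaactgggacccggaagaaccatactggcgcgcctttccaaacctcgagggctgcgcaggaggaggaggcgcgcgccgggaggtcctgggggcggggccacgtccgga

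Of the 44 genes, 36 had a promoter in the RefSeq table, and 6 motifs were searched on both strands of the 250 bases before the start. The E2F site TTTCCCGC was in 6 of the 36 (16.7%), those of Chek2, Mdc1, Brca2, Bard1, Fancg and Xrcc6, and in 0.929% of 27025 promoters. CCAAT was in 19 of the 36 (52.8%) and in 34.5% of all promoters. The E2F site TTTGGCGC was in Msh3 alone (0.437% of all), the palindromic NRF1 site in Lig4 alone (0.777%), the ETS site CCGGAAGT in Lig4 and Ogg1 (2.92%), and the cell cycle homology region TTTGAA in Bard1 alone (16.3%). No motif of the 6 lay in the windows of Chek1 and Fancl. These matches describe letters, not bound sites.

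Among the kinases and chromatin proteins, Chek1 was lower after the adenoma stage. Its log2 ratio in adenomas was -0.44, -0.73, -0.19, -1.09 and -0.42, and in carcinomas it ran from -2.28 to -1.18 with a median of -1.76. Every carcinoma lay below every adenoma, and Chek1 fell by 1.13 ± 0.29 (SE, adjusted p = 0.0175), a 2.19-fold difference. Disseminated cells, from -2.35 to -0.63 (median -1.67), and metastases, at -1.16, -1.35, -1.09, -2.52 and -1.19, also read lower than adenomas, by -0.98 ± 0.29 (adjusted p = 0.0222) and -0.88 ± 0.31 (adjusted p = 0.0355). Both overlapped the adenomas, and metastases 4 lay below the other metastases. With the cell cycle mean as a covariate, the changes from adenomas were -0.43 in carcinomas, -0.022 in disseminated cells and 0.028 in metastases, none called. That mean was higher in every adenoma than on any other progression array, so these fits cannot separate it from the group.

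Atm moved the other way in metastases. It read -0.59, -0.65, -0.40, -1.29 and -1.34 in metastases and from -2.56 to -2.06 (median -2.29) in carcinomas. The groups did not overlap, and Atm rose by 1.46 ± 0.35 in metastases against carcinomas (adjusted p = 0.00607), or 2.76-fold. Adenomas read -2.10, -1.19, -1.15, -2.24 and -2.02, with the probe well above background on 1 of 5 arrays, and disseminated cells ran from -2.70 to -0.52 (median -2.07), with 3 of 6 arrays well above background. Another probe of Atm, to its RefSeq transcript, differed by 0.35 in the same direction.

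Chek2 was not called in any comparison: it read -1.26, -0.97, -1.30, -2.14 and -0.31 in adenomas and -1.51, -1.45, -0.71, -1.78 and -0.76 in metastases, and ran from -1.68 to -0.58 (median -1.03) in carcinomas and from -2.26 to -1.06 (median -1.90) in disseminated cells. All 4 groups overlapped. H2afx read -0.52, -0.42, 0.09, -0.29 and 0.18 in adenomas and -0.42, -0.86, -0.64, -0.79 and 0.27 in metastases, and ran from -0.36 to 0.25 (median -0.09) in carcinomas and from -0.81 to -0.22 (median -0.66) in disseminated cells. H2afx fell by 0.52 ± 0.18 in disseminated cells against carcinomas (adjusted p = 0.0373), with some overlap. Trp53bp1, the chromatin protein that favours end joining, fell by 0.55 ± 0.16 in disseminated cells against adenomas (adjusted p = 0.0213).

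In the Mre11-Rad50-Nbn complex the 3 subunits did not move alike. Rad50, the ATPase that tethers ends, read -1.85, -1.49, -1.35, -2.40 and -1.87 in adenomas and -1.77, -1.21, -1.30, -2.29 and -2.41 in metastases, and ran from -3.21 to -2.40 (median -2.68) in carcinomas and from -2.73 to -1.28 (median -2.64) in disseminated cells. Disseminated cells differed by 0.36 from carcinomas and by -0.55 from adenomas, neither called. The limma change of Rad50 was -0.92 ± 0.27 in carcinomas against adenomas (adjusted p = 0.0343). In metastases against carcinomas it was 0.92 ± 0.27 (adjusted p = 0.0209). The former was called in 9 of 26 alternative settings and the latter in 23 of 27, and Rad50 was well above background on 3 of 5 adenoma arrays. Both rest on the brighter probe, since the other, well above background on 1 of 22 arrays, differed by -0.20 and 0.014.

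Nbn, the subunit that recruits Atm, was high in some disseminated samples. It ran from -1.94 to 1.07 (median -0.80) in disseminated cells and from -2.07 to -1.17 (median -1.72) in carcinomas, and read -1.93, -2.38, -1.86, -1.72 and -2.13 in metastases. Disseminated 3, with the highest Nbn value, was also 1 of the arrays with few epithelial transcripts. Adenomas read -1.21, -1.20, -0.81, -1.58 and -0.80. Nbn rose by 1.05 ± 0.34 in disseminated cells against carcinomas (adjusted p = 0.0278) and fell by 1.34 ± 0.36 in metastases against disseminated cells (adjusted p = 0.0176), and without disseminated 3 the former change was 0.70 and was not called. The other probes of Nbn gave smaller differences of the same sign, down to 0.075 and -0.15. Mre11a, the nuclease, was not called by its brightest probe, and its probes disagreed: another probe differed by 0.81 in carcinomas against adenomas and a further one by -0.61.

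Of the 9 homologous recombination genes, Brca1, Brca2 and Exo1 fell in disseminated cells against adenomas and 6 were not called (12.3% of all genes fell). Brca2 read -1.81, -1.44, -1.11, -1.16 and -1.0 in adenomas and ran from -1.37 to -0.53 (median -0.92) in carcinomas and from -3.42 to -1.05 (median -2.55) in disseminated cells. In metastases it read -2.03, -2.32, -2.49, -3.49 and -1.07. Apart from disseminated 4 and metastases 5, the lung groups lay below every primary tumor. Brca2 fell by 1.25 ± 0.37 in disseminated cells against adenomas (adjusted p = 0.0236), by 1.60 ± 0.36 against carcinomas (adjusted p = 0.003) and by 1.33 ± 0.37 in metastases against carcinomas (adjusted p = 0.0153). A dimmer probe of Brca2 differed by -0.20 in disseminated cells and by -0.043 in metastases against carcinomas and was not called in either.

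Exo1 was -1.27, -1.57, -0.46, -1.39 and -0.46 in adenomas, from -2.26 to -1.22 (median -1.68) in carcinomas, from -3.64 to -1.06 (median -2.38) in disseminated cells and -2.10, -3.22, -2.38, -4.06 and -1.09 in metastases. The spread was wide in both lung groups and overlapped the adenomas. Exo1 fell by 1.35 ± 0.45 in disseminated cells (adjusted p = 0.0391) and by 1.54 ± 0.47 in metastases (adjusted p = 0.0187) against adenomas. With the cell cycle mean as a covariate these changes turned to 0.30 and 0.03, neither called. That mean did not overlap between adenomas and either lung group, so the fits cannot separate it from the group.

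Brca1 read -2.33, -2.12, -2.43, -1.95 and -2.05 in adenomas and -2.06, -2.44, -2.12, -2.75 and -1.80 in metastases, and ran from -3.26 to -2.22 (median -2.58) in carcinomas and from -3.67 to -1.96 (median -3.20) in disseminated cells. It fell by 0.76 ± 0.26 in disseminated cells against adenomas (adjusted p = 0.0445), was called there in 8 of 27 alternative settings, and did not keep its sign on all 3 slides that these groups share, nor on its dimmer probe (0.013). Rad52, a strand annealing protein, fell by 0.95 ± 0.28 in disseminated cells against carcinomas (adjusted p = 0.0179) and was 1.02 ± 0.30 higher in metastases than in disseminated cells (adjusted p = 0.0279). Rad54l, a motor of strand exchange, was 0.89 ± 0.28 higher in the latter comparison (adjusted p = 0.0372), and 0.11 higher by another probe. Bard1, the partner of Brca1, was called higher in metastases than in adenomas (adjusted p = 0.0405), but its probe was well above background on 0 of 5 adenoma arrays and 2 of 5 metastasis arrays, so that the size of the difference is not given.

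In the Fanconi anemia pathway, 4 of 5 members fell in metastases against adenomas (Fanca, Fancc, Fancg and Fancl), where 15.5% of all genes fell. In disseminated cells against adenomas 3 of 5 fell, where 12.3% of all genes fell. Fancl, the ubiquitin ligase subunit of the core complex, read -0.99, -1.21, -0.62, -0.81 and -0.54 in adenomas and -2.22, -2.88, -2.04, -2.43 and -1.85 in metastases. Carcinomas ran from -1.45 to -0.75 (median -1.19) and disseminated cells from -2.14 to -0.84 (median -1.40). Every metastasis sample lay below every primary tumor. Fancl fell by 1.45 ± 0.22 in metastases against adenomas (adjusted p = 9.94e-05), or 2.73-fold, by 1.14 ± 0.21 against carcinomas (adjusted p = 0.00106) and by 0.83 ± 0.21 against disseminated cells (adjusted p = 0.0124). The call against adenomas held in 25 of 25 alternative settings. Another probe of Fancl gave smaller changes in metastases, at -0.68 against adenomas, -0.78 against carcinomas and -0.14 against disseminated cells.

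Fancc, another core complex subunit, was highest in carcinomas. Its values were from 0.26 to 1.27 (median 1.05) in carcinomas, -0.17, 0.13, 0.79, 0.27 and 0.46 in adenomas, from -1.28 to -0.14 (median -0.71) in disseminated cells and -0.41, -0.32, -0.38, -1.11 and 0.01 in metastases. Both lung groups lay wholly below the carcinomas. Fancc fell by 1.63 ± 0.21 in disseminated cells against carcinomas (adjusted p = 4.77e-05) and by 1.37 ± 0.22 in metastases against carcinomas (adjusted p = 0.000451), and each was called in 27 of 27 alternative settings. Fanca fell by 0.97 ± 0.25 in disseminated cells and by 0.97 ± 0.26 in metastases, and Fancg fell by 0.67 ± 0.18 in metastases, all against adenomas. Another probe of Fanca, well above background on 5 of 22 arrays, differed by -0.093 and 0.056 in these comparisons. The other probes of Fancg gave smaller changes of the same sign in metastases against adenomas, down to -0.15. Fancd2, the protein that the core complex modifies, was dim and not called.

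Of the 5 end joining genes, Lig4 and Xrcc5 were called in at least 1 comparison and the other 3 in none. Lig4 read 1.77, 1.53, 1.47, 1.57 and 1.61 in metastases, against 0.45, 0.45, 0.53, -0.47 and 0.38 in adenomas. It ran from -0.15 to 0.47 (median 0.27) in carcinomas and from -1.32 to 1.30 (median -0.59) in disseminated cells. Every metastasis sample was above every array of the other 3 groups, and the metastases were tight (SD 0.11) where the disseminated cells were not (SD 1.01). Lig4 rose by 1.32 ± 0.35 against adenomas (adjusted p = 0.00836), 1.34 ± 0.34 against carcinomas (adjusted p = 0.00804) and 1.88 ± 0.34 against disseminated cells (adjusted p = 0.00145), the last being 3.68-fold.

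Xrcc5, the Ku80 subunit that caps broken ends, was low in disseminated cells. It ran from -3.79 to -2.41 (median -2.95) there and from -2.31 to -1.49 (median -1.71) in carcinomas, and read -2.01, -1.73, -2.34, -2.08 and -1.76 in adenomas and -1.79, -1.56, -1.62, -2.86 and -1.48 in metastases. The disseminated cells lay below all adenomas and carcinomas, and metastases 4 lay among them. Xrcc5 fell by 1.11 ± 0.26 against adenomas (adjusted p = 0.00587) and by 1.30 ± 0.25 against carcinomas (adjusted p = 0.00098), and was 1.24 ± 0.26 higher in metastases than in disseminated cells (adjusted p = 0.00398). Xrcc6, the Ku70 subunit, Prkdc, the kinase that Ku activates, and Xrcc4, the partner of Lig4, were not called, although 1 of the other probes of Xrcc4 was called in 4 comparisons.

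Among base excision and single-strand break repair genes, 5 of 7 fell in disseminated cells against adenomas (Lig3, Ung, Xrcc1, Ogg1 and Parp1), where 12.3% of all genes fell. In metastases against adenomas 3 fell (Ogg1, Lig3 and Xrcc1) and Parp2 rose, where 15.5% of all genes fell and 13.1% rose. Ogg1, the glycosylase that removes oxidised guanine, read -0.88, -0.65, -0.36, -0.68 and -0.35 in adenomas and -2.23, -2.30, -2.30, -2.84 and -1.73 in metastases. Carcinomas ran from -2.02 to -0.46 (median -0.69) and disseminated cells from -2.33 to -0.69 (median -1.54). Metastases lay below all adenomas and below all carcinomas but carcinoma 6, the carcinoma with a high macrophage mean. Ogg1 fell by 1.69 ± 0.29 in metastases against adenomas (adjusted p = 0.000339), or 3.24-fold, by 1.42 ± 0.28 against carcinomas (adjusted p = 0.0018), and by 0.98 ± 0.28 in disseminated cells against adenomas (adjusted p = 0.0186). The first was called in 25 of 25 alternative settings and the second in 27 of 27.

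Lig3, the ligase of single-strand break repair, read 1.95, 2.23, 3.12, 2.61 and 2.31 in adenomas and 1.25, 0.91, 1.58, 0.29 and 2.00 in metastases, and ran from 0.53 to 2.11 (median 1.87) in carcinomas and from -0.31 to 1.92 (median 0.72) in disseminated cells. Disseminated cells lay below every adenoma. Lig3 fell by 1.68 ± 0.37 there (adjusted p = 0.00485), or 3.20-fold, and by 1.24 ± 0.39 in metastases against adenomas (adjusted p = 0.0225). Xrcc1, its scaffold, fell by 1.04 ± 0.22 in disseminated cells (adjusted p = 0.00315) and by 1.08 ± 0.22 in metastases (adjusted p = 0.0015) against adenomas, with no overlap in either. Ung fell by 1.24 ± 0.33 in disseminated cells against adenomas and by 1.28 ± 0.31 against carcinomas, and Parp1, the main sensor of strand breaks, fell by 0.73 ± 0.23 in disseminated cells against adenomas.

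Parp2, the related sensor, was higher in metastases. It read -1.42, -0.92, -0.57, -0.86 and -1.65 there and -1.88, -1.65, -1.63, -2.39 and -2.06 in adenomas, and ran from -2.76 to -1.45 (median -1.98) in carcinomas and from -2.48 to -1.44 (median -1.98) in disseminated cells. The groups overlapped slightly, and Parp2 rose by 0.84 ± 0.25 (adjusted p = 0.0162), 0.94 ± 0.24 (adjusted p = 0.00867) and 0.85 ± 0.24 (adjusted p = 0.0231) against the 3 groups in turn. Apex1, the endonuclease that cuts at lost bases, read 0.98, 1.26, 1.27, 0.26 and 1.28 in metastases and 0.88, 0.37, -0.21, -0.25 and 0.50 in adenomas, and ran from 0.25 to 1.13 (median 0.95) in carcinomas and from -1.62 to 1.24 (median -0.91) in disseminated cells. Disseminated 6 had the highest Apex1 value of its group and overlapped the metastases. Apex1 fell by 1.32 ± 0.36 in disseminated cells against carcinomas (adjusted p = 0.0112) and was 1.52 ± 0.38 higher in metastases than in disseminated cells (adjusted p = 0.0124).

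Of the 3 mismatch repair genes measured, Msh3 and Pms2 fell in carcinomas, Pms2 in disseminated cells, and Msh6 and Pms2 in metastases, each against adenomas, where 4.77%, 12.3% and 15.5% of all genes fell. Pms2, the endonuclease subunit of the MutL complex, read -1.84, -1.50, -0.91, -2.0 and -1.72 in adenomas and -2.89, -2.61, -2.52, -3.35 and -2.82 in metastases. Carcinomas ran from -2.88 to -2.21 (median -2.69) and disseminated cells from -3.26 to -1.90 (median -2.49). All carcinomas and metastases lay below all adenomas. Pms2 fell by 1.04 ± 0.22 in carcinomas (adjusted p = 0.00535), 0.89 ± 0.22 in disseminated cells (adjusted p = 0.00794) and 1.24 ± 0.23 in metastases (adjusted p = 0.000532). Another probe of Pms2 went the other way and was called 0.52 higher in disseminated cells than in adenomas, so the direction rests on the brighter probe.

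Msh3, which recognises insertion loops, fell by 0.92 ± 0.18 in carcinomas against adenomas (adjusted p = 0.00326) with no overlap, and was 0.77 ± 0.18 higher in metastases than in carcinomas (adjusted p = 0.00489). These values rest on its brightest probe: of its 3 dimmer probes, 2 had the opposite sign in the former comparison, up to 0.11. Msh6, which recognises mispaired bases, fell by 1.13 ± 0.26 in metastases against adenomas (adjusted p = 0.00357), also with no overlap.

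Nucleotide excision repair had members higher and lower. Xpa, which verifies the lesion, read -0.40, -1.12, -1.49, -1.55 and -0.33 in adenomas and ran from -0.33 to 0.28 (median -0.04) in carcinomas and from -1.14 to -0.69 (median -0.96) in disseminated cells, with -0.93, -0.64, -0.33, 0.05 and -0.34 in metastases. Carcinomas lay above all disseminated cells and, by a margin under the rounding of these values, above all adenomas. Xpa rose by 0.94 ± 0.21 in carcinomas against adenomas (adjusted p = 0.00841) and fell by 0.89 ± 0.20 in disseminated cells against carcinomas (adjusted p = 0.00338). Ercc3, a helicase of TFIIH, read -0.45, -0.05, -0.13, -0.20 and -0.18 in metastases and -0.57, -0.63, -1.44, -0.68 and -0.76 in adenomas, and ran from -1.47 to -0.42 (median -0.85) in carcinomas and from -1.28 to -0.27 (median -0.66) in disseminated cells. Metastases lay above all adenomas, and Ercc3 rose by 0.61 ± 0.22 against adenomas (adjusted p = 0.0411) and 0.72 ± 0.21 against carcinomas (adjusted p = 0.0179). Ercc1, a subunit of the nuclease that cuts on the 5′ side, fell by 0.88 ± 0.27 in disseminated cells against adenomas and by 1.10 ± 0.26 against carcinomas.

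Ercc2, the other TFIIH helicase, was called higher in metastases against each of the other groups, but its probe was well above background on 0 of 5 adenoma, 0 of 6 carcinoma, 1 of 6 disseminated and 4 of 5 metastasis arrays. Its level in metastases was therefore at least 1.27-fold higher than in carcinomas (adjusted p = 0.0284), a bound set by the dimmest signal well above background, and no fold is given against adenomas.

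**Figure D5:**
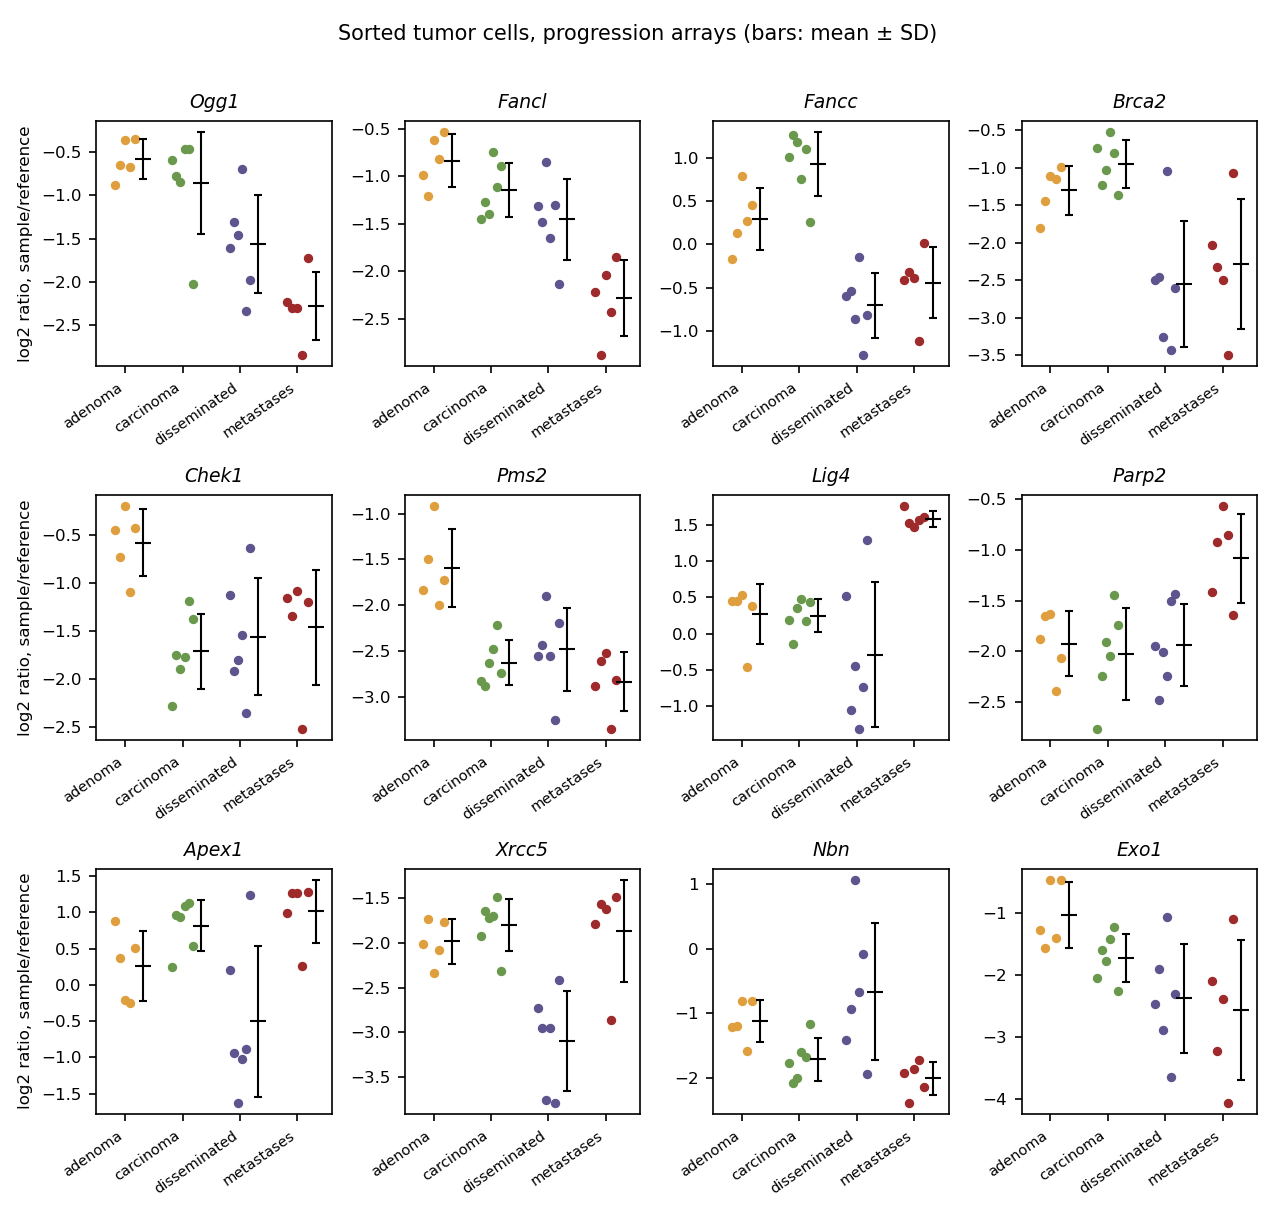
Log2 ratio of sample to reference (y axis) on each progression array for 12 genes, by group (x axis), with the mean and SD of each group as bars. The metastases lie below all adenomas for Ogg1 and Fancl and above every other array for Lig4, and Fancc is lowest in disseminated cells and metastases.

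Where groups shared slides, the changes could be read within them. All 12 members called in metastases against carcinomas had the same sign on each of the 3 shared slides, and 15 of the 16 called in disseminated cells against adenomas did so, the exception being Brca1. The shared slides held all arrays of these groups, so the calls and the signs come from the same arrays and are not independent. The share with the same sign among all called genes was not counted. For the other pairs of progression groups no slide held both. Each pair of chemotherapy groups shared a slide, but no member was called in those comparisons.

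A further 80 repair and checkpoint genes, listed by pathway knowledge, were measured on the same arrays. None was called by limma after chemotherapy, with 7, 5 and 7 of 80 at an unadjusted p below 0.05. In progression 31 of 80 fell and 1 rose in disseminated cells against adenomas (12.3% and 8.32% of all genes), 32 fell and 7 rose in metastases against adenomas (15.5% and 13.1%), and 20 fell and 2 rose in carcinomas against adenomas (4.77% and 6.94%). Against carcinomas 21 fell and 11 rose in disseminated cells (17.4% and 9.17% of all genes), and 22 fell and 10 rose in metastases (14.1% and 7.99%). Among the largest falls in their comparisons were those of Timeless, a replication fork protein, at -1.60 ± 0.19 in disseminated cells (adjusted p = 4.22e-05), Atrip, the partner of Atr, at -1.77 ± 0.31 in metastases (adjusted p = 0.000432) and Rev3l, the catalytic subunit of a translesion polymerase, at -1.50 ± 0.21 in carcinomas (adjusted p = 0.00032), each against adenomas. The largest rise against adenomas was that of Rad23b, a damage recognition partner of Xpc, at 1.58 ± 0.27 in metastases (adjusted p = 0.000302). Mpg, an alkylated base glycosylase, fell by 1.87 ± 0.27 in disseminated cells (adjusted p = 0.000123) and by 1.55 ± 0.28 in metastases (adjusted p = 0.00116) against carcinomas. Between metastases and disseminated cells, 8 of 80 rose and 6 fell, or 17.5% called beside 13.1% of all genes.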

How the data were processed

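Sorted tumor cells were profiled on 38 2-colour Agilent arrays. Per the file headers and the study's methods, the authors scanned them with Agilent Feature Extraction 10.7, and the deposited intensity values are mean spot and median local background signals of Cy5 (sample) and Cy3 (reference). The deposited log2 ratios served as an alternative; their direction and scale were read from their correlation with the scanner values, and their exact processing stays unknown. With limma 3.58.1 in R 4.3.3, intensities were background-corrected (normexp, offset 50), normalized by loess within arrays and by quantile between arrays of an experiment, and averaged over spots of a probe. The probe with the highest mean signal stood for a gene. Every gene name (28781) was tested in one fit per experiment and called at a Benjamini-Hochberg adjusted p below 0.05, a 2-fold change being a further level. Values are relative to a pool, so levels of different genes were not compared. Quantile normalization sets aside any change common to most genes. Extra amplification of the progression RNA can distort levels between genes. Precision is limited by the 4 to 6 arrays of a group.

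The members and lists were chosen with earlier results of these data known. Values per sample were given for Brca1, Brca2, Atm, Chek1, Chek2, H2afx and the 3 largest called rises and falls of each comparison, and the 3 largest called of the further repair genes each way could be named. The code was tested on simulated data. Alternatives covered background, normalization, dim probes, choice of probe, slide, replicate block, covariates, the methods' t-test (the study's legends name it, its methods section names limma) and each array left out. The reference channel and control spots were not tested. A result on 1 of the further repair genes is not reported here.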

Additional observations from a re-analysis of the deposited data

Results flagged for a closer look

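In 9 of the 140 groups of 4 to 6 samples examined (6.43%), 1 sample lay far from the others of its group, where chance would give about 1 in 20. Among untreated tumors, replicate 5 was high for Brca1 at -1.75 (the others from -3.09 to -2.60) and for H2afx at -0.45 (the others from -1.81 to -1.36). Relapsed 1 was low for Brca2 at -2.13 (the others from -1.72 to -1.65). Metastases 4, whose epithelial marker mean was 0.40, was low for Chek1 at -2.52 (the others from -1.35 to -1.09), for Apex1 at 0.26 (from 0.98 to 1.28) and for Xrcc5 at -2.86 (from -1.79 to -1.48). Adenoma 4 was low for Lig4 at -0.47 (from 0.38 to 0.53), and adenoma 3 was low for Ercc3 at -1.44 (from -0.76 to -0.57). Carcinoma 6, whose macrophage marker mean was 4.77, was low for Ogg1 at -2.02 (from -0.84 to -0.46). The part of marker levels in these values was not tested.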

How the results depend on the processing

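Limma called 0 members in each chemotherapy comparison under every alternative run, leave-one-out fits included (0 to 0). In progression, leaving out 1 array gave 4 to 5 members in carcinomas against adenomas, 7 (without disseminated 5) to 18 (without disseminated 6) in disseminated cells against adenomas, 10 (without metastases 4) to 16 in metastases against adenomas, 9 to 16 (without disseminated 4) in disseminated cells against carcinomas, 10 to 17 (without metastases 5) in metastases against carcinomas, and 6 (without disseminated 2) to 13 (without disseminated 6) in metastases against disseminated cells. Requiring 2-fold gave 2, 7, 8, 7, 6 and 5 in that order. Processed signals gave 3 in carcinomas against adenomas, and the deposited ratios gave 10 in disseminated cells against adenomas. The methods' t-test gave 7 there and 0 in metastases against disseminated cells (14 at an unadjusted p below 0.05). The cell cycle covariate gave 1 in carcinomas, 0 in disseminated cells and 5 in metastases, all against adenomas. The macrophage covariate gave 0 in disseminated cells and 5 in metastases against adenomas, and 1 and 7 against carcinomas. Adenomas overlapped no other group in the cell cycle mean, and neither lung group in the macrophage mean. Those fits against adenomas cannot separate the covariate from the group. Without the 4 arrays that stood apart, chosen after seeing the data, disseminated cells against adenomas gave 8. The cause of these differences was not tested.

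The replicate block gave 0 members in each chemotherapy comparison and 5, 11, 15, 13, 16 and 13 in progression, in the order above. Same-numbered samples shared only a number: their deviations correlated from -0.41 to 0.42 in chemotherapy and from -0.41 to 0.33 in progression. A fixed slide block could not be fitted for pairs of groups that share no slide. Where it could, it gave 17 in disseminated cells against adenomas and 14 in metastases against carcinomas.

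Of 1993 values of single genes under alternatives, 1759 kept direction and call, 145 lost the call, 22 gained it and 67 changed sign, of which 64 were called in neither fit. The log2 changes that changed sign follow. With outlying background left out, H2afx was 0.035 in residual and 0.18 in relapsed against untreated tumors, Brca1 0.15 and Chek2 0.34 in metastases against adenomas, and Chek1 -0.075 in disseminated cells against carcinomas. With the mean of probes, Atm was -0.0021 in relapsed against untreated tumors and Chek2 -0.060 in carcinomas against adenomas. With the slide block, Atm was -0.025 and Chek2 0.12 in residual and H2afx 0.24 in relapsed against untreated tumors, and Atm 0.056 in relapsed against residual tumors and -0.051 in disseminated cells against adenomas. With the replicate block, H2afx was 0.050 in relapsed against untreated tumors, and Atm 0.046 in relapsed against residual tumors and -0.11 in disseminated cells against adenomas. With the cell cycle covariate, Brca2 was 0.026, Chek1 0.068 and H2afx 0.11 in residual and H2afx 0.044 in relapsed against untreated tumors, and H2afx -0.071 in relapsed against residual tumors. Against adenomas with that covariate, Brca1 was 0.016 in carcinomas, Exo1 0.30, Chek2 0.18 and H2afx 0.18 in disseminated cells, and Exo1 0.026, Brca1 0.50, Brca2 0.062, Chek1 0.028, Chek2 0.66 and H2afx 0.26 in metastases. With offset 0, Atm was -0.031 in disseminated cells against adenomas. With processed signals, Atm was 0.021 in carcinomas and Brca1 0.31 and Chek2 0.57 in metastases against adenomas, and Chek1 -0.075 in disseminated cells against carcinomas. With median centring, Atm was 0.0085 in carcinomas and Brca1 0.22 and Chek2 0.37 in metastases against adenomas. With Aquantile, Chek2 was -0.26 in carcinomas and Atm -0.48 in disseminated cells against adenomas. With deposited ratios, Brca1 was 0.22 and H2afx 0.12 in metastases against adenomas. With the macrophage covariate, Chek2 was 0.12 in metastases against adenomas and Brca2 -0.052 in metastases against disseminated cells. Without the 4 arrays, Brca1 was 0.068 and Chek2 0.090 in metastases against adenomas. Over leave-one-out fits, Atm ran from -0.22 to 0.21 in disseminated cells against adenomas and from -0.17 to 0.038 in relapsed against residual tumors, and H2afx from -0.13 to 0.14 in relapsed against untreated tumors. In metastases against adenomas Brca1 ran from -0.17 to 0.068 and Chek2 from -0.28 to 0.18, and in metastases against disseminated cells Brca2 ran from -0.036 to 0.57, Chek1 from -0.058 to 0.36 and H2afx from -0.087 to 0.19. Chek1 ran from -0.035 to 0.31 in disseminated cells against carcinomas and Chek2 from -0.093 to 0.37 in carcinomas against adenomas. Signal near background limits Bard1, Fancd2, Ercc2, Atm and Chek2.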
